A study of Mus musculus with 6 samples.

Results

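The nuclei described here are 253 liver nuclei with transcripts of Dmbt1, a secreted scavenger receptor of mucosal surfaces, or Mmp7, a matrix metalloproteinase made by glandular epithelia. They were chosen from measured values, by a rule on unique molecular identifiers (UMIs, counted transcript molecules). A nucleus needed at least 500 detected genes, at least 1000 UMIs and a mitochondrial share under 5%. The hepatocyte genes Apob, Cps1, Abcb11 and Mat1a together had to hold under 0.3% of its UMIs. It needed at least 2 UMIs of Dmbt1 and Mmp7 together and at least 4 over Dmbt1, Mmp7, Klf5 and Krt19. At most 3 UMIs of Stab2, Ptprb, Clec4f and Reln, genes of endothelial, Kupffer and stellate cells, were allowed. Of 26467 nuclei past the quality limits, the 253 made up 0.956% (exact binomial 95% interval 0.842% to 1.08%). All intervals here cover counting error only.

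The data come from single-nucleus RNA sequencing of liver from 6 male mice aged 18 weeks, all labelled strain C57BL/6JBomTac, fed chow and fasted for 12 hours overnight. The labels name 3 as littermate controls and 3 as knockouts of Plvap, a protein of endothelial diaphragms, deleted in hepatic stellate cells. Both groups carry the same source designation, Plvaptm1.1Salm-Tg(Lrat-cre)1Rshw, in which the Lrat promoter drives Cre. It is not labelled whether control mice carried the Cre transgene. Each library is 1 mouse, and the mice are called control 1 to 3 and knockout 1 to 3.

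Biliary epithelial cells, or cholangiocytes, line the bile ducts and modify bile by moving chloride, bicarbonate and water across their membranes. Small ducts within the liver are simple, whereas large ducts, the extrahepatic duct and the gallbladder also carry glands and mucus-secreting and defence genes. Pkhd1 encodes fibrocystin, a protein of the primary cilium of duct cells, and Spp1 encodes osteopontin, a secreted phosphoprotein used as a duct marker.

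The 6 libraries held 27297 barcodes and between 23153182 and 27199466 UMIs each, with a median of 4163 to 5412 UMIs per nucleus past the quality limits. In nuclei with at least 5 Reln UMIs, Plvap stood at 198.9 to 232 CPM (UMIs per 1e+06 UMIs) in the controls and at 148.9 to 215 in the knockouts, ranges that overlap. The labels do not say where the deleted exons lie relative to the 3′ tag, so this does not check the genotype labels. Libraries shared 74 barcodes, of which none belonged to the 253 nuclei.

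One control library held nearly all of the Dmbt1 Mmp7 nuclei. Control 2 had 240, which is 4.99% of its 4812 nuclei (interval 4.39% to 5.64%). Control 1 had 7, knockout 3 had 4, and knockout 1 and knockout 2 had 1 each. Control 3 had 0 of 3608, for which a floor of 3 nuclei is a share of 0.0831% and the exact interval reaches 0.102%. Control 2 thus held 94.9% of them (interval 91.4% to 97.2%), and no comparison of genotypes was made. The labels do not say which piece of liver entered each library, and its part in this count was not tested. Doublet scoring marked 1 of the 253.

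**Figure D1:**
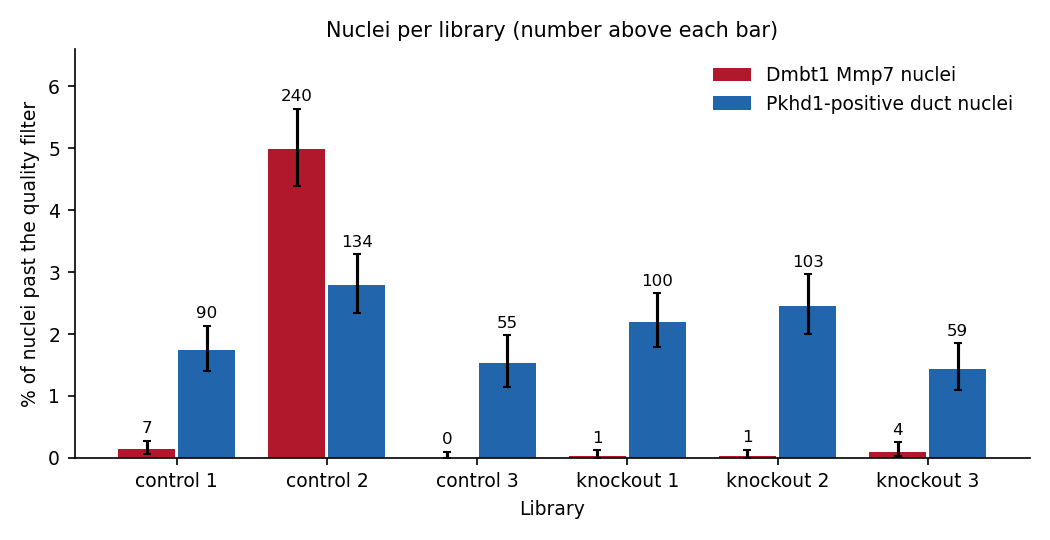
Share of nuclei past the quality limits (y axis, %) that were Dmbt1 Mmp7 nuclei (red) or Pkhd1-positive duct nuclei (blue) in each library, with the number of nuclei above each bar and exact 95% binomial intervals. Duct nuclei were found in all 6 libraries, from 55 in control 3 to 134 in control 2, whereas 240 of the 253 Dmbt1 Mmp7 nuclei were in control 2.

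The comparison population was Pkhd1-positive duct nuclei, which met the same quality, hepatocyte and excluder limits, had at least 3 Pkhd1 UMIs and were not among the 253. There were 541, with 90, 134 and 55 in control 1 to 3 and 100, 103 and 59 in knockout 1 to 3. Their share of nuclei per library ran from 1.44% to 2.79%, highest in control 2. Some were deep with few Pkhd1 UMIs, such as 1 of 16148 UMIs in knockout 2 and 1 of 18722 in control 1. Both of these had 4 Pkhd1 UMIs and no Spp1. Whether such nuclei are duct cells was not tested. Comparisons below set the 240 nuclei of control 2, with 1338733 UMIs in sum, against the 134 duct nuclei of the same library, with 598944 UMIs. Since 1 library holds the members, no p-value was computed. The spread of the duct nuclei over the 6 mice is given in its place, as the lowest, median and highest CPM. Median depth was 5232.5 UMIs in the Dmbt1 Mmp7 nuclei and 4255.5 in these duct nuclei, and median mitochondrial share 0.436% and 0.172%. The part of either in the results was not tested.

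The genes of the rule are given as a description. Dmbt1 (chr7:131032053-131121630, + strand, mm10 gene coordinates from GENCODE M21) had a median of 34.5 UMIs per nucleus in control 2, a highest of 212 and 10490 UMIs in sum, or 7836 CPM. Duct nuclei of control 2 had 11 Dmbt1 UMIs in sum, 18.4 CPM, and the other 5 libraries' duct nuclei had 1 nucleus with a Dmbt1 UMI. Mmp7 (chr9:7692090-7699585, + strand) stood at 442 CPM against 9.45, 12.7 and 50.1 as the lowest, median and highest over the duct nuclei of 6 libraries. Krt19 (chr11:100140810-100148665, - strand), a keratin of simple and ductal epithelia, stood at 474 CPM against 28.3, 55.0 and 73.5. Klf5 (chr14:99298691-99315036, + strand), a zinc-finger transcription factor of epithelia, stood at 594 CPM against 38.9, 68.7 and 119. For these 4 genes the level in control 2's members lay above every duct library.

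Few nuclei lay near the limits on the 4 genes of the rule, and more lay near the excluder limit. Among the 253, 3 had exactly 4 UMIs over the 4 genes, and 8 nuclei missed by 1 UMI. At exactly 2 UMIs of Dmbt1 and Mmp7 there were 2 nuclei, and 7 that met the 4-gene sum had only 1. The excluder sum was exactly 3 in 9, and 20 further nuclei met all else with a sum of 4 to 10 and 21 with a sum over 10. With at most 1 excluder UMI allowed, 211 nuclei met the rule, and with no excluder limit 294 did. Dmbt1 reached at least 10 UMIs in 203 nuclei and was 0 in 5. Mmp7 was 0 in 96, Krt19 in 61 and Klf5 in 50, and all 4 genes were detected together in 98.

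Dmbt1 UMIs were also found in other nuclei of control 2. One was found in 7.03% of its nuclei with at least 1% hepatocyte-gene UMIs (41 of 583, median 11049 UMIs) and in 6.21% of its nuclei with over 10 endothelial, Kupffer or stellate UMIs (186 of 2997, median 4247 UMIs). In the other libraries these shares were 0% to 0.163% and 0% to 0.0751%. Without the nuclei that met the 4-gene conditions themselves, a choice made after seeing the data, the shares in control 2 were 6.39% (37 of 579, of which 35 had exactly 1 UMI) and 5.61% (167 of 2978, of which 156 had exactly 1). Duct nuclei of control 2, at 7.46% with a Dmbt1 UMI (10 of 134), had a share like these, so their Dmbt1 is not read as expression. Free RNA and doublets were not told apart.

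Promoter sequence is shown for Mmp7, the one rule gene matched in the RefSeq promoter table (GRCm38.p6), and for Slc26a3 and Duox2, 2 genes far higher in these nuclei than in duct nuclei (below). Each runs from 250 bases before to 50 after the RefSeq start and is printed 5′ to 3′ on the gene's strand. They lie at chr9:7691840-7692139 (+ strand), chr12:31437969-31438268 (+ strand) and chr2:122298178-122298477 (- strand). The Slc26a3 window lies inside the gene as placed by GENCODE M21 (chr12:31390871-31473917), far downstream of its annotated start there. Most of the Duox2 window, with its marked matches, also lies inside its gene there (chr2:122279247-122298449), downstream of the annotated start.
Mmp7: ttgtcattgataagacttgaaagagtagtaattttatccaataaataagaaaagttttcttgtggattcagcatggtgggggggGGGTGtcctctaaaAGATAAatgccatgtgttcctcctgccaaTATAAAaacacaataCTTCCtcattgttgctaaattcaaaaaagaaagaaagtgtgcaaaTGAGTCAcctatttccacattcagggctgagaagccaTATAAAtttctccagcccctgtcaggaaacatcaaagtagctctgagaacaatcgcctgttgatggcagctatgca
Slc26a3: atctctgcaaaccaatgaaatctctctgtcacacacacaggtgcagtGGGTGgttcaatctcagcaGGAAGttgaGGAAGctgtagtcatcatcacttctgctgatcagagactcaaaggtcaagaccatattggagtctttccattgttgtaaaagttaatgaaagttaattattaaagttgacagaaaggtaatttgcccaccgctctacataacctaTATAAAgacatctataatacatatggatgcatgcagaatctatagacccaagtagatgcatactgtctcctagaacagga
Duox2: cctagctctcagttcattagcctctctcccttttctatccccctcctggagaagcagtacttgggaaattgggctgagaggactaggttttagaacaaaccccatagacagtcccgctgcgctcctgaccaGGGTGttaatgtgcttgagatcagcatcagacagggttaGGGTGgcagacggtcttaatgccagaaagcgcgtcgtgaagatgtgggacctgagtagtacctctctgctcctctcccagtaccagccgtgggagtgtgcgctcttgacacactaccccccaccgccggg
Capitals mark every match, on either strand, to 7 motifs, given with the share of all 27025 promoters in the table that hold each. They were TGANTCA (AP-1, 7.93%), TATAAA (core promoter box, 14.2%), AGATAA (read by GATA factors, 11.4%), GGAAG (ETS core, 71.1%), CACCC (KLF, 56.7%), GGGCGG (SP/KLF, 35.9%) and the NF-kB motif (20.5%). The Mmp7 promoter holds TGAGTCA at -63, TATAAA at -26 and -123, AGATAA at -152, CTTCC, the reverse strand of GGAAG, at -108 and GGGTG, the reverse strand of CACCC, at -166, with no matches overlapping. Slc26a3 holds TATAAA at -30, GGAAG at -175 and -184 and GGGTG at -203. Duox2 holds GGGTG at -80 and -119 and none of the other motifs. Among the genes called higher below, 171 of 241 had a promoter in the table, and 8.77% of these held TGANTCA, against 4.80% of 5480 measured genes with a promoter and 7.73% of 207 called lower. For TATAAA the shares were 11.7%, 6.70% and 7.25%, for CACCC 73.1%, 62.6% and 64.7%, for AGATAA 11.7%, 6.11% and 6.28%, and for the NF-kB motif 34.5%, 27.1% and 28.5%. GGGCGG (52.6%, 67.0% and 56.0%) and GGAAG (70.2%, 76.1% and 66.2%) had lower shares among the genes called higher than among measured genes. For GGAAG the share among the genes called lower was lower still. These matches are letters in a window, not binding sites.

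The label of biliary epithelium was checked on genes outside the rule. Of 28 biliary and simple epithelial genes, 24 were measured, meaning a mean of at least 25 CPM over the 2 populations. A gene is called where the CPM ratio was at least 4, with a population under 3 UMIs set to 3 UMIs. By this rule 1 of the 24 was higher and 4 were lower, with a median log2 ratio of 0.23, beside 0.04 over all 6968 measured genes. Over those genes 3.46% were called higher and 4.18% lower. Of the 4 lower, 3 stood under 25 CPM in the Dmbt1 Mmp7 nuclei and were measured only through the duct nuclei. The same held for 216 of the 291 genes called lower over all genes. Duct transcription factors were present: Onecut1 stood at 489 CPM against 331 to 602 in the 6 duct libraries. Onecut2 was 2590 CPM against 801, 993 and 1204 as lowest, median and highest. Anxa13, an annexin of epithelia, stood at 746 CPM against 304 to 701, and the adhesion molecule Epcam at 88.9 against 106 to 169.

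Several defining duct genes were low. Spp1 stood at 100.1 CPM (134 UMIs) against 1927, 2580 and 4312 as the lowest, median and highest over duct libraries, a log2 ratio of -4.58 to control 2's duct nuclei (95% interval -4.84 to -4.32). After thinning every nucleus to 2000 UMIs, 15% of Dmbt1 Mmp7 nuclei had an Spp1 UMI against 84.0% of duct nuclei in control 2, and unthinned the former share was 25.8%. Sox9, a transcription factor of duct and progenitor cells, stood at 21.7 CPM against 67.9 to 177. Sox4, its relative, stood at 8.22 against 42.9 to 100.2, and Ddit4l, an inhibitor of mTOR signalling, at 5.98 against 138 to 246. The 1 gene of the list called higher was Cd24a, a surface glycoprotein, at 168 CPM against 3.53 to 31.7. Onecut1 therefore lay within the duct range and Onecut2 and Anxa13 above it, whereas Epcam, Spp1 and Sox9 lay below every duct library. No limit for meeting the label was set, and these levels were compared with duct nuclei only.

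Genes of the cilium and of cystic duct disease divided in the same way. Of 14 measured, 0 were higher and 2 lower, with a median log2 ratio of -0.55. Both lower genes were measured only through the duct nuclei. Glis3, a zinc-finger factor mutated in cystic disease, stood at 3137 CPM, within the duct range of 2281 to 3345. Bicc1, an RNA-binding protein, stood at 1547 CPM against 2137 to 3250. Dcdc2a, a ciliary doublecortin protein, was 21.7 CPM against 765, 888 and 1038 (35.3-fold lower than in control 2's duct nuclei, interval 24.3 to 53.3). Pkhd1 itself, which chose the duct nuclei, was 1387 CPM against 5393 to 7384. It had at least 3 UMIs in 190 of the 253 nuclei and none in 17, all of control 2.

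**Figure D2:**
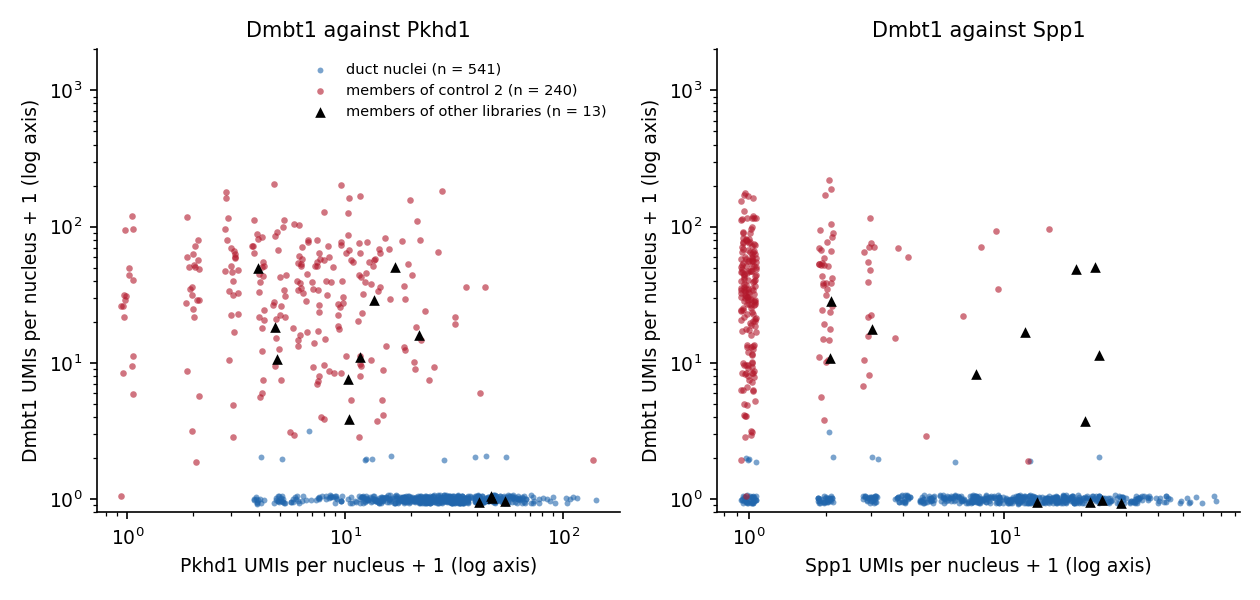
UMIs per nucleus plus 1 on log axes, Dmbt1 (y axis) against Pkhd1 (left) and Spp1 (right), for Dmbt1 Mmp7 nuclei of control 2 (red), those of other libraries (black triangles) and all duct nuclei (blue), with points slightly jittered. Control 2's nuclei reach up to 212 Dmbt1 UMIs and mostly lack Spp1, whereas all 13 nuclei of other libraries have Spp1.

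Across 6968 measured genes outside the rule, 241 were called higher and 291 lower in the Dmbt1 Mmp7 nuclei, 7.63% in all. Of these, 235 (3.37% of genes) lay above the highest of the 6 duct libraries and 270 (3.87%) below the lowest. When duct nuclei of another library were set against those of control 2 by the same rule, 0.247% to 4.6% of genes were called higher and 0.372% to 0.996% lower. The 4.6% belonged to knockout 2 and the next share, 2.27%, to control 1. The part of the deep duct nuclei with few Pkhd1 UMIs in these shares was not tested. With the duct nuclei of the other 5 libraries as the comparison, 311 were higher (4.38%) and 438 lower (6.16%), sharing 201 and 216 genes with the calls within control 2. Control 2's duct nuclei had the highest CPM of the 6 libraries for 38.6% of the genes called higher, against 17.8% of all measured genes. The part of free RNA in that was not tested.

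The 15 genes with the largest calls upward covered a nuclear receptor, transporters, signalling enzymes and defence genes. All 15 stood under 25 CPM in control 2's duct nuclei and so were measured only through the Dmbt1 Mmp7 nuclei. They could only be called higher. Their choice also required a level above all 6 duct libraries, so the duct ranges given for them describe that choice. Esrrg (chr1:187608791-188214885, + strand), the estrogen-related nuclear receptor gamma, had 1000 UMIs against 3 in control 2's duct nuclei, or 747 against 5.01 CPM (ratio 149, interval 50.9 to 724). Duct nuclei of the 6 libraries ranged from 0 to 206 CPM for Esrrg with a median of 41.2, highest in knockout 2. The pooled duct nuclei of the other 5 libraries stood at 90.7 CPM, so the ratio to them is smaller. After thinning, 3.47% of those nuclei had an Esrrg UMI, against 47.9% of the Dmbt1 Mmp7 nuclei. The part of deep nuclei with few Pkhd1 UMIs in this range was not tested. Aspa (chr11:73304992-73329596, - strand), which hydrolyses N-acetylaspartate, stood at 763 CPM against 12.3, 18.0 and 24.7 as lowest, median and highest, 38.1-fold above the same library's duct nuclei (interval 21.7 to 73.9). Pcdh11x (chrX:120290259-120910619, + strand), a protocadherin, stood at 751 CPM against 0 to 12.9. Adgrg7, an adhesion G protein-coupled receptor, stood at 459 CPM against 0 to 10.0 (614 against 6 UMIs). Kcnb2, a voltage-gated potassium channel, stood at 374 CPM against 0 to 11.7.

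Enzymes were also among the 15. Gsto1, an omega-class glutathione transferase, had 302 against 3 UMIs (226 CPM against 0 to 5.01 over duct libraries). Adcy8, a calcium-stimulated adenylyl cyclase, had 281 against 1 (ratio 126, interval 22.4 to 4983, or 41.9 with the 1 UMI set to 3, the value it was ranked by). Sptssb, a small subunit of serine palmitoyltransferase, had 242 against 2 and the lipid flippase Atp10b 229 against 2. For Sptssb and Atp10b the highest duct library stood at 7.35 and 3.34 CPM, against 181 and 171. Ptprt, a receptor tyrosine phosphatase, stood at 430 CPM against 0 to 11.7. Meg3, an imprinted long noncoding RNA, came nearest to the duct range, at 200.2 CPM against a highest of 177 in knockout 1.

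**Figure D3:**
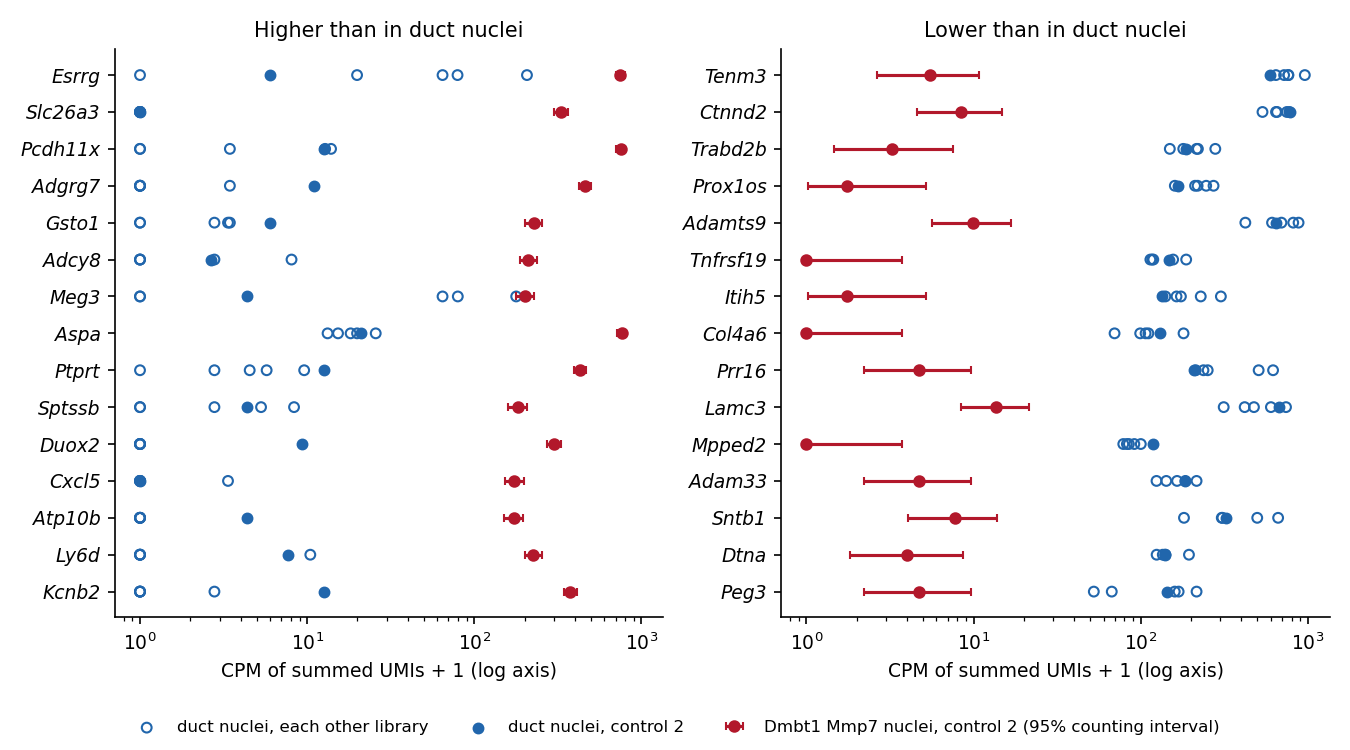
CPM of summed UMIs plus 1 (log axis) for the 15 genes with the largest ratio in each direction, in Dmbt1 Mmp7 nuclei of control 2 (red, with 95% counting intervals), duct nuclei of control 2 (filled blue) and duct nuclei of each other library (open blue). The genes were chosen for red points outside the 6 blue ones, which for Meg3 are as near as 200.2 against 177 CPM, and Esrrg spans 0 to 206 CPM among duct libraries.

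Ion and solute transporters of bile formed the list with the most calls upward. Of 19 measured, 6 were higher and 2 lower, with a median log2 ratio of 0.82. Of the 6, 3 stood under 25 CPM in the duct nuclei and so were measured only through the Dmbt1 Mmp7 nuclei, as were 165 of the 241 genes called higher over all genes. Slc4a4 (NBCe1), the electrogenic sodium bicarbonate cotransporter, stood at 4781 CPM against 194, 328 and 492 as lowest, median and highest over duct libraries, 11.5-fold above the same library's duct nuclei (interval 10.1 to 13.1). Its lowest-to-highest range over the duct libraries lay far below the level in these nuclei. Slc26a3 (chr12:31390871-31473917, + strand), an intestinal chloride-bicarbonate exchanger, had 440 UMIs and none in the duct nuclei of any library, so it was at least 65.6-fold higher with 3 UMIs as the floor of the duct sum in control 2. Ano1, a calcium-activated chloride channel, stood at 1797 CPM against 109, 155 and 254. Slc10a2, the apical bile acid transporter, stood at 192 CPM against 0 to 34.4. Both carbonic anhydrases were called, Car2 at 147 CPM against 21.5 to 52.0 and Car9 at 56.8 against 0 to 5.01, with Car2 just past the limit at a ratio of 4.01.

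The secretin receptor and the glucose transporter were the 2 lower genes, both measured only through the duct nuclei. Sctr, through which secretin drives bicarbonate secretion in duct cells, had no UMI against 30 in control 2's duct nuclei, at least 22.4-fold lower with 3 UMIs as the floor of the member sum. Its duct level ran from 38.9 to 70.8 CPM over 6 libraries. Slc5a1, the sodium-glucose cotransporter, stood at 13.5 CPM against 94.8 to 185. The chloride channel Cftr was not called, at 82.9 CPM against 67.9 to 229, nor was the water channel Aqp1, at 28.4 CPM against 7.06 to 30.7.

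Of 20 mucus genes, 7 were measured, of which 3 were called higher and none lower, with a median log2 ratio of 1.94. All 3 stood under 25 CPM in the duct nuclei and passed the filter through their level in the Dmbt1 Mmp7 nuclei, so the count describes those genes and not the list. Muc4, a membrane mucin, had 103 UMIs against 1 (76.9 CPM against 0 to 1.67 over duct libraries). Fcgbp, a mucus-gel protein, had 115 against 1 (85.9 CPM against 0 to 9.80). Tff2, a trefoil peptide of gastric and biliary mucus, stood at 56.0 CPM against 2.45 to 13.4. Muc1 missed the limit at a ratio of 3.83. Muc5b, Muc5ac and Tff1 had no UMI, and Muc6 was not measured.

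Of 25 defence genes, 10 were measured, of which 5 were called higher and none lower, with a median log2 ratio of 2.27. Of the 5, 4 stood under 25 CPM in the duct nuclei and passed the filter likewise. Duox2 (chr2:122279247-122298449, - strand), a dual oxidase that releases hydrogen peroxide at epithelial surfaces, stood at 300 CPM against 0 to 8.35 over duct libraries, 35.9-fold above the same library's duct nuclei (interval 15.3 to 111). Ltf, the iron-binding lactoferrin, had 109 UMIs and none in the duct nuclei of any library. Ly6d, a lipid-anchored surface protein, stood at 225 CPM against 0 to 9.45. The endotoxin receptor Tlr4 stood at 240.5 CPM against 0 to 35.1, and Wfdc2, a secreted protease inhibitor, at 97.1 against 3.53 to 21.5. Pigr, the transporter of polymeric immunoglobulin, was not called, at 202 CPM against 100.1 to 219. Reg3b, Reg3g, Lyz1 and Bpifb1 had no UMI.

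Chemokine, junction and protease lists each held a few calls. Of these, Cxcl5, Tnfaip2 and Cldn2 stood under 25 CPM in the duct nuclei. They passed the filter through the Dmbt1 Mmp7 nuclei and so could only be called higher. Of 9 chemokine and NF-kB genes measured, 2 were higher: Cxcl5 (chr5:90759360-90761624, + strand), a chemokine that attracts neutrophils, with 231 UMIs against none, and Tnfaip2, induced by tumour necrosis factor, with 132 against 2. Cxcl5 was at least 34.5-fold higher with 3 UMIs as the floor of the duct sum, and the highest duct library stood at 2.36 CPM. Of 24 junction, integrin and basement membrane genes, 2 were higher and 0 lower. Cd44, the hyaluronan receptor, stood at 1115 CPM against 3.53, 16.3 and 120.2, the last in control 2, and Cldn2, a pore-forming claudin, at 97.9 against 0 to 17.2. Of 8 metalloproteinases, adamalysins and their partners, Plaur, the urokinase receptor, was higher, at 209 CPM against 4.72 to 31.7. All 4 measured keratins outside the rule, Krt7, Krt8, Krt18 and Krt23, missed the limit, with a median log2 ratio of 0.55.

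**Figure D4:**
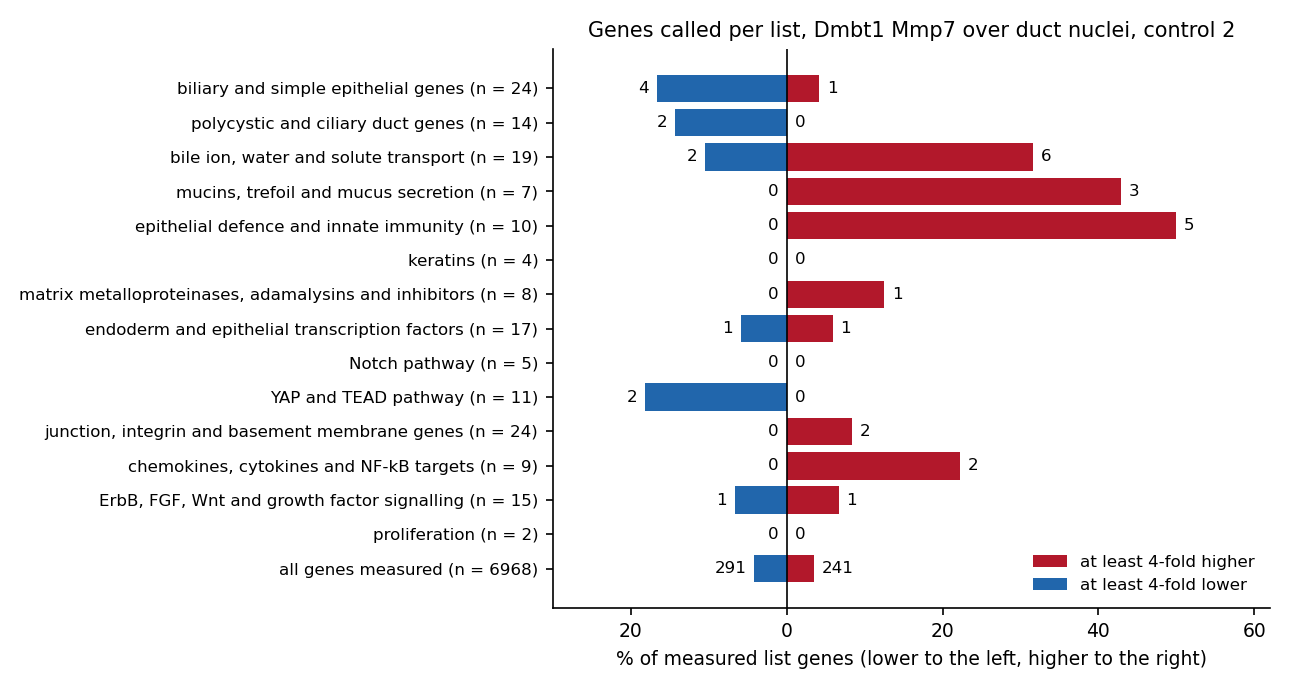
Percentage of the measured genes of each list that were at least 4-fold higher (red, right) or at least 4-fold lower (blue, left) in Dmbt1 Mmp7 nuclei than in duct nuclei of control 2, with the number of genes at each bar. Defence (5 of 10), mucus (3 of 7) and transport (6 of 19) genes have the most calls upward, against 241 of 6968 over all measured genes. Many of these are measured only through the Dmbt1 Mmp7 nuclei.

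Transcription factors and growth pathways had few calls. Sox17 and Wnt7b, called higher, were measured only through the Dmbt1 Mmp7 nuclei. Prox1 and Amotl1, called lower, were measured only through the duct nuclei. Of 17 endodermal and epithelial factors measured, Sox17, which marks the extrahepatic bile duct and gallbladder in development, was higher, with 91 UMIs against 1 (68.0 CPM against 0 to 3.53). Prox1, a homeobox factor of liver and lymphatic cells, was lower, at 23.9 CPM against 742, 800 and 1066. The other measured factors of the extrahepatic region, Gata6 and Hnf4g, lay within 4-fold, and Pdx1 was below the measured level with 23 UMIs against 1. In the ErbB, FGF and Wnt list, 1 of 15 was higher (Wnt7b, a Wnt ligand, 84.4 CPM against 1.79 to 17.2) and 1 lower (Erbb4, the neuregulin receptor, 1546 CPM against 4951 to 7614). Fgfr2, a receptor for fibroblast growth factors, missed the limit at 3.03-fold, at 3807 CPM against 1256 to 1546. Among 5 Notch genes none was called, and Jag1, a ligand, stood at 27.6 CPM against 67.9 to 147. Of 11 YAP and TEAD genes, Amotl1 and Frmd6, which encode proteins upstream of YAP, were lower and none higher. Of 20 proliferation genes only Ccnd1 and Ccnd2 were measured, neither was called, and Mki67 had no UMI.

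The 15 genes with the largest calls downward included adhesion and basement membrane genes. All 15 stood under 25 CPM in the Dmbt1 Mmp7 nuclei and so were measured only through the duct nuclei. They could only be called lower. Their choice also required a level below all 6 duct libraries, so the duct ranges given for them describe that choice. Tenm3 (chr8:48227682-48843951, - strand), a teneurin of cell contacts, had 6 UMIs against 354, or 4.48 CPM against 591, 742 and 959 over the duct libraries (a log2 ratio of -7.04, interval -8.50 to -5.91). After thinning, none of 234 Dmbt1 Mmp7 nuclei had a Tenm3 UMI, which allows a share of up to 1.56% by the exact interval, against 55.7% of duct nuclei. Ctnnd2 (chr15:30172593-31029341, + strand), delta-catenin, stood at 7.47 CPM against 535, 701 and 785. Adamts9, a secreted metalloproteinase, stood at 8.96 CPM against 422 to 879, and Lamc3, a laminin chain, at 12.7 against 313 to 739.5. Col4a6, a basement membrane collagen chain, the receptor Tnfrsf19 and the phosphodiesterase Mpped2 had no UMI in the 240 nuclei, against 78, 88 and 70 in the duct nuclei. Prox1os, the antisense transcript of Prox1, had 1 UMI against 100, and the annotated genes overlap by 419 bases. Trabd2b, Itih5, Adam33, Sntb1, Peg3 and 2 further genes made up the 15, at 1 to 9 UMIs against 80 to 193.

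Markers of other cell types were summed over each list. For the endothelial, stellate and mesothelial lists the sum was also taken without the 1 gene that made up most of the duct sum, a choice made after seeing the data. This was not done for other lists, such as the extrahepatic one, where Hnf4g made up 658 of 850 CPM in control 2's duct nuclei. Summed over 12 hepatocyte genes the Dmbt1 Mmp7 nuclei of control 2 had 1873 CPM, below the 2301 to 5834 of the duct libraries. None of the 12 was called. Of the 4 with highest CPM, Alb (260 against 778 to 1952) and Apoa2 (240.5 against 277 to 524) lay below every duct library. Ttr (707 against 399 to 619) and Hnf4a (229 against 103 to 204) lay above every one. The endothelial list summed to 143 CPM against 254 to 357, and without Gpm6a, which the duct nuclei express, to 119 against 55.4 to 134, and 1 of its 2 measured genes, Flt1, was higher at 62 CPM against 0 to 6.68. The macrophage list summed to 134 CPM against 155 to 260. The stellate list summed to 665 against 1087 to 1728, and without Ank3, likewise expressed by duct nuclei, to 109 against 96.5 to 152. Of the T and NK list, Bcl11b was higher at 82.2 CPM against 0 to 6.68, whereas Cd3e had no UMI. The pancreatic acinar list summed to 27.6 CPM against 0 to 5.01, with Cpa1, Cpb1 and Prss2 at 0. In the gastric and intestinal list Olfm4 was higher, at 130.0 CPM against 0 to 7.06, and Gkn1, Gkn2, Cdx2, Alpi and Sis had no UMI. The mesothelial list summed to 28.4 CPM against 180.1 to 283, and without Gpm6a to 3.74 against 0 to 11.8, with Upk3b and Wt1 at 0. The T and NK, B-cell, glial, smooth muscle, gastrointestinal and extrahepatic lists summed to values within the duct ranges. Flt1, Bcl11b and Olfm4 were measured only through the Dmbt1 Mmp7 nuclei, so they could only be called higher. The part of the markers of other cell types in the other results was not tested.

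Tuft-cell genes bear on the duct nuclei rather than on the Dmbt1 Mmp7 nuclei. Dclk1, a kinase of tuft cells, was 25.4 CPM in the latter, against 17.9, 46.0 and 852 over the duct libraries, with 852 in control 2 and 321 in knockout 1. In control 2, 4 of 134 duct nuclei carried at least 4 UMIs over at least 3 of Trpm5, Pou2f3, Avil, Chat and Il25, and 1 did in knockout 1. Without those nuclei, a comparison chosen after seeing the data, 250 genes were called higher and 282 lower.

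The 13 Dmbt1 Mmp7 nuclei outside control 2 differed from those inside it. Spp1 was found in all 13 and stood at 2887 CPM over 63384 UMIs, within the duct range, against 100.1 CPM in control 2. Pkhd1 stood at 4260 CPM against 1387. Esrrg had no UMI in any of the 13. Slc4a4 stood at 268 CPM, within the duct range of 194 to 492, and Cd44 at 47.3. For 4 of the 13, in control 1 (1), knockout 1 (1) and knockout 3 (2), Dmbt1 was 0 and Mmp7 alone, at 3 to 6 UMIs, met its part of the rule. These 4 had 178 Pkhd1 UMIs, 22 of Tenm3, 11 of Ctnnd2 and 21 of Dcdc2a.

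The other 9 carried 3 to 47 Dmbt1 UMIs each and 32858 UMIs in sum. Tenm3, Ctnnd2 and Adamts9 had no UMI in them, which allows up to 91.3 CPM at 3 UMIs, below the lowest duct library for each gene (591, 535 and 422 CPM). Fgfr2 stood at 5630 CPM and Onecut2 at 2922, above the duct ranges, as in control 2. Spp1, at 3135 CPM, and Erbb4, at 6300, lay within the duct ranges, unlike in control 2. Slc26a3 had 3 UMIs and Tff2 had 11, whereas Duox2, Adgrg7 and Esrrg had none. This division by Dmbt1 was made after the values were seen and rests on few nuclei.

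Within control 2 the genes differed in how widely they were spread over nuclei. At 2000 UMIs per nucleus (234 nuclei, with 6 too shallow), a Dmbt1 UMI was found in 97.0%, and the 24 nuclei richest in Dmbt1 held 29.8% of its unthinned UMIs. Aspa and Esrrg were each found in 47.9% and Pcdh11x in 47.0%. Unthinned, these shares were 67.9%, 57.5% and 60.8%. Slc26a3 was found in 19.2% thinned and 22.5% unthinned, and its 24 richest nuclei held 84.3% of its UMIs. Cxcl5 was found in 12.0% and 17.1% and Meg3 in 12.0% thinned, with 94.8% of Meg3 UMIs in 24 nuclei. Glis3, by contrast, was found in 98.7% at 2000 UMIs, with 22.4% of its UMIs in 24 nuclei.

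The leading axis of variation over the 500 most variable genes took 3.01% of variance in the same 234 nuclei, which were divided along it into 3 groups of 78. These genes were ranked by the axis, so their levels are a description. From the low to the high end C4bp, which binds complement C4b, stood at 75.2, 327 and 740 CPM. Gclc, a subunit of the enzyme that begins glutathione synthesis, stood at 332, 811 and 2057, and Esrrg at 340, 532 and 1263. Cxcl5 stood at 2.59, 51.8 and 414 CPM, and Ltf at 5.19, 29.3 and 184. At the low end, Erbb4 stood at 3253, 937 and 754 CPM, and Zbtb16, a zinc-finger repressor, at 467, 15.8 and 0. Sgcd, a sarcoglycan, stood at 584, 40.6 and 0, and Slc2a2, the glucose transporter of liver, at 716, 505 and 146. Median depth was 4720, 5237 and 5917 UMIs in the same order, and the median sum of the excluder genes 1, 0.5 and 0 UMIs. The part of either in the axis was not tested. Krt19 (444, 532 and 448 CPM) and Klf5 (591, 514 and 666) had no such order, whereas Mmp7 stood at 265, 352 and 658. Dmbt1 stood at 5981, 8942 and 8353 CPM, and Pkhd1 was 1974, 1140 and 1149.

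**Figure D5:**
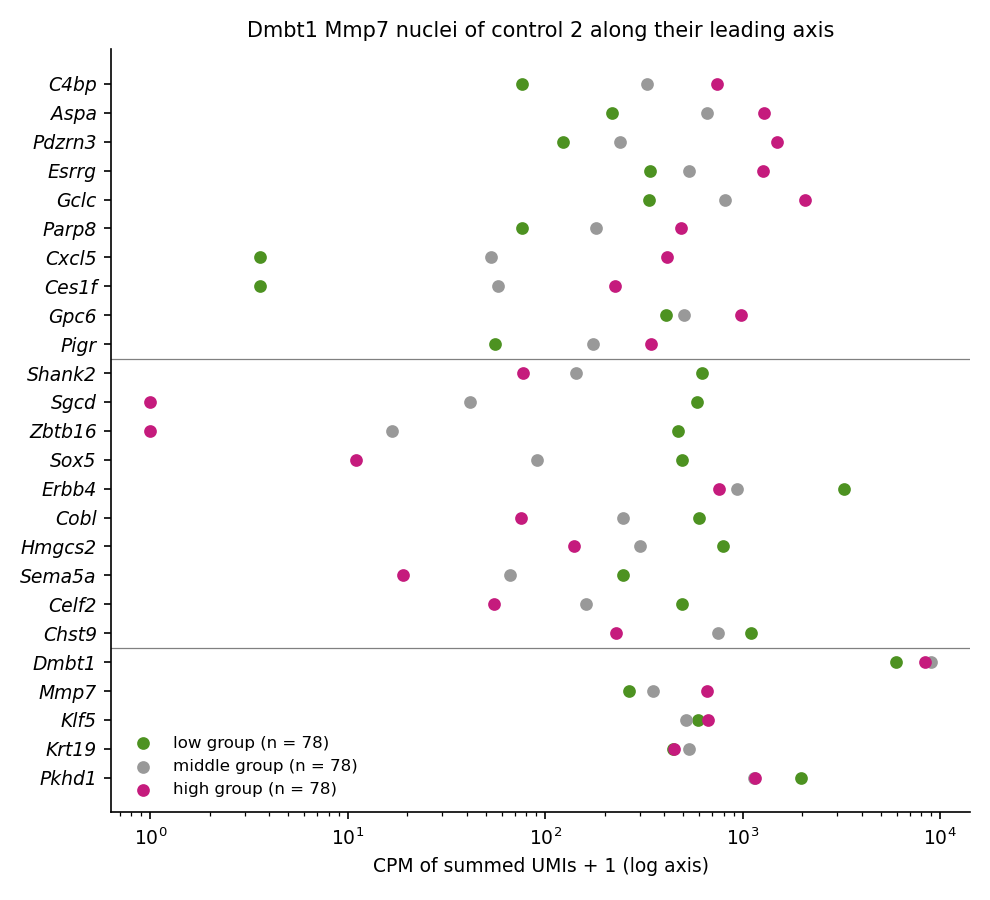
CPM of summed UMIs plus 1 (log axis) in the low (green), middle (grey) and high (magenta) group of 234 Dmbt1 Mmp7 nuclei of control 2 along their leading axis, 78 nuclei each, for 10 genes of the high end (top), 10 of the low end (middle) and the rule genes with Pkhd1 (bottom). Cxcl5 spans 2.59 to 414 CPM and Zbtb16 spans 467 to 0, whereas Klf5 and Krt19 change little.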

How the data were processed

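Single-nucleus libraries (10x Genomics 3′ kit) of 6 livers were analysed. The deposited matrices hold raw UMI counts per gene and barcode, per the file headers. Alignment was to mm10 with Cell Ranger 7.0.1, per the submitters' processing notes, or 7.1.0, per the file headers. Neither says whether intronic reads or strand were used. The members and the gene lists were chosen with earlier results of these data known.

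Counts were summed over nuclei and divided by their total (CPM, computed here) in Python 3.11.15 with numpy 2.4.6. Ratios have exact conditional binomial 95% intervals (scipy 1.17.1), with recovery tested on simulated data. Genes were measured at a mean of 25 CPM, without rule and mitochondrial genes, and called at 4-fold. Doublets were scored per library with scrublet in scanpy 1.11.5 (expected rate 0.06) and kept. Thinning to 2000 UMIs used 1 seeded draw. Named genes were the rule genes, the 15 largest calls per direction with at least 100 CPM outside the 6 duct libraries' range and an approved symbol, and of each list the calls and up to 4 genes of highest CPM. Cftr, Aqp1, Epcam, Pdx1, C4bp, Gclc, Zbtb16, Sgcd and Slc2a2 are outside that rule and were chosen after their values were seen. TMM came from edgeR 4.0.16. Alternatives changed the rule's limits, duct definition, scaling, filter, fold, depth and libraries. Whole-class genotype tests were not made here. Gene positions are those of GENCODE M21, in which 32235 of 32285 features were found. A few items of the lists are not reported here.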

Additional observations from a re-analysis of the deposited data

How the results depend on the processing

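Under the other limits tried for the rule, 211 to 294 nuclei met it and 94.3% to 95.6% of them were in control 2. The calls, 241 higher and 291 lower, became 377 and 531 at a CPM minimum of 10, 75 and 100 at a minimum of 100, and 377 and 784 with no filter. They became 682 and 736 at 2-fold and 108 and 152 at 8-fold. Median-of-ratios scaling moved the median log2 ratio of all genes from 0.04 to 0.14 and gave 269 and 261. The 17 members with no Pkhd1 UMI gave 473 and 149, where few UMIs in sum and the 3-UMI floor limit calls downward. Duct nuclei of the other 5 libraries gave 311 and 438. Leaving out 1 other library from the pooled duct nuclei gave 282 to 290 higher and 325 to 416 lower. Thinning to 1000 UMIs gave 166 and 357. Without control 2, the 13 remaining members gave 306 higher and 60 lower. They held 63384 UMIs, where the floor of 3 UMIs is 47.3 CPM and limits calls downward. Of 119 named genes, 76 moved out of their main counting interval and a further 7 changed side. The log2 ratio was -0.39 for Slc4a4, 0.15 for Spp1, 0.46 for Frmd6, 0.33 for Erbb4 and 0.34 for Gpm6a. For Esrrg (-0.94) and Meg3 (-0.60) the 13 nuclei had no UMI, so these ratios come from the floor. The cause of the other changes was not tested. No other setting tried changed the direction of a named gene that had been called. Many named genes still moved out of their interval, 63 on thinning to 1000 UMIs and 59 with the members without Pkhd1. With duct nuclei of the other 5 libraries 43 moved and with those of all 6 libraries 30, against 4 under median-of-ratios scaling. No paired analysis was possible because the results come from no test and replicate numbers follow accession order.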

Other observations

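Control 2 also held most nuclei with tuft-cell genes. With at least 4 UMIs over at least 3 of 12 tuft and enteroendocrine genes, 16 nuclei were found there, 1 in knockout 1 and none in the other 4 libraries. None was among the Dmbt1 Mmp7 nuclei. The 16 had a median of 4184.5 UMIs and no doublet call. The list that chose them holds Pou2f3 and Trpm5, so their detection is a description. Pou2f3, the transcription factor that specifies tuft cells, was found in all 16 (1130 CPM, against 0 in the Dmbt1 Mmp7 nuclei of control 2), and Trpm5, a taste-signalling channel, in 15. Rgs13, Sh2d6 and Alox5, chosen after their values were seen, stood at 3617, 1879 and 608 CPM. Hormone genes of enteroendocrine cells (Chga, Chgb, Sst, Cck and Gip) had no UMI. Dmbt1 was found in 1 of the 16.

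Nuclei with at least 4 UMIs over at least 3 of 10 mesothelial genes numbered 22 in control 2, 12 in knockout 2, 11 in knockout 3, 3 in control 3, 1 in knockout 1 and 0 in control 1. No nucleus in any library met the same limit for pancreatic acinar genes.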
